A study of Homo sapiens with 8 samples.

Results

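The annexins are a family of proteins that bind phospholipids in the presence of calcium, and S100A10 is the small protein that pairs with annexin A2. The 9 genes followed here were chosen by their symbols: ANXA1, ANXA2, ANXA3, ANXA4, ANXA5, ANXA6, ANXA7, ANXA11 and S100A10. These are 9 of the 27946 genes in the table of RNA levels, each represented by its transcript with the highest mean FPKM (fragments per kilobase of transcript, scaled to the reads of the library). All 9 had an FPKM above the filter on low values in each of the 8 libraries, so no member entered the tests only through the group in which it was high.

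RNA was sequenced from EA.hy926, an immortalized human line made by fusing umbilical vein endothelial cells with lung carcinoma cells. The 8 libraries comprised 2 of control cells, 3 of clonal lines that had lost the enhancer E2 (ΔE2) and 3 of clonal lines that had lost SE12313-b (ΔSE12313-b). Both deleted elements belong to a super-enhancer on chromosome 16, and each was removed by transfection of Cas9 protein with guide RNAs, after which single clones were grown out. For its assay of cell growth the study used control cells that took up guide RNAs and were grown alongside, and whether the control RNA was taken from these cells is not given in the sources used here. The labels attach the word clones to every library, control included, but clone isolation is described for the deletions alone, so that a deletion and the derivation of a clone cannot be told apart in a comparison with control. No source says that the control libraries came from separate cultures. The p-values of the fold changes rest on a spread pooled over all 3 groups, and the part of it from control may be technical.

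An annexin holds a conserved core that binds membranes with calcium and an N-terminal tail that differs between members. Annexin A2 and S100A10 form a complex on the inner face of the plasma membrane and on the cell surface, where in endothelial cells it is known to bind plasminogen and its tissue activator. Other annexins are known for ending inflammation (A1), binding exposed phosphatidylserine (A5), organizing membranes and repairing tears in them (A6, A4), and regulating vesicles and granules (A7, A11).

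The depth was between 12067557 and 19101152 reads per library, recovered from the FPKM steps, and a member was covered by between 137 reads (the lowest for ANXA6) and 25934 reads (the highest for ANXA2). The control libraries differed from each other by little more than counting noise (chi-square per degree of freedom 1.19), whereas pairs of clones of the same deletion gave 4.06 to 23.4. ADAMTS18, the gene the study links to this super-enhancer, was at 0.771 ± 0.125 FPKM (SD, n = 2) in control, 0.123 ± 0.0322 in ΔE2 and 0.170 ± 0.0550 in ΔSE12313-b (n = 3 each). It was above the filter through the control libraries alone, so these levels are given with no test. Of 10 endothelial markers 8 were above the filter, with a summed FPKM of 299.1 to 299.7 in control, 316 to 489 in ΔE2 and 327 to 441 in ΔSE12313-b, while CLDN5 was at 0. Of 7 epithelial markers KRT8 and KRT18 were above the filter and CDH1 was at 0, and their sum was 232 to 239 in control, 613 to 752 in ΔE2 and 541 to 669 in ΔSE12313-b. Both sums were higher in every clone than in either control. The endothelial markers TIE1 (55.3 and 56.8 FPKM in control, 39.1 to 53.5 FPKM in the clones) and VWF were instead lower in every clone. The epithelial sum rested almost wholly on KRT8 and KRT18. Below the filter, EPCAM (0.554 and 0.243 FPKM in control, 0 to 0.215 FPKM in the clones) was lower in every clone. So was CLDN4 (0.431 and 0.227 FPKM in control, 0 to 0.185 FPKM in the clones), while KRT19 was 0 in control and at most 0.16 FPKM in the clones. The part of these markers in the results below was not tested. In bulk RNA, fewer cells of a type and less RNA per cell cannot be told apart. Of 4 leukocyte markers only CD68 was above the filter (24.3 to 40.4 FPKM) and PTPRC had at most 1 read, and of 5 fibroblast markers none was.

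The sequences that bear most on how the RNA of these genes can be read are those of ANXA2 and its processed pseudogenes, because reads of 75 bases cannot always be assigned to the right copy. ANXA2 lies on chromosome 15 (chr15:60639350-60690185, minus strand, GRCh37), ANXA2P1 on chromosome 4 (chr4:154228621-154229963, minus strand), ANXA2P2 on chromosome 9 (chr9:33624223-33625532, plus strand) and ANXA2P3 on chromosome 10 (chr10:66585285-66586634, plus strand). Below are the first 20 codons of ANXA2, which encode the N-terminal tail that holds the segment bound by S100A10, and the matching 60 bases of each pseudogene, read 5′ to 3′ from GRCh37, with bases that differ from ANXA2 in capitals. The ANXA2 stretch is spliced and begins at the start codon chr15:60678272-60678274 (minus strand).
ANXA2: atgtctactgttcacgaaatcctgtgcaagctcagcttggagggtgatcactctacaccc
ANXA2P2: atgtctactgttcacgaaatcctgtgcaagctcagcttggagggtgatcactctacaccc
ANXA2P1: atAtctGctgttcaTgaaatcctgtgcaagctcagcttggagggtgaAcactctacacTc
ANXA2P3: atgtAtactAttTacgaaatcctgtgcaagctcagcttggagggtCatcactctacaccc
ANXA2P2 (chr9:33624272-33624331) had 0 differences in this stretch, ANXA2P1 (chr4:154229855-154229914) had 5 and ANXA2P3 (chr10:66585329-66585388) had 4. Over the whole alignable length, the identity to ANXA2 was 98.5% for ANXA2P2 (1130 bases), 93.6% for ANXA2P1 (1343 bases) and 92.1% for ANXA2P3 (1349 bases). Of the 1480 windows of 75 bases in the ANXA2 transcript, 464 (31.4%) were also present, base for base, in a pseudogene.

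The promoters of ANXA2 and S100A10 are shown because both were called in each deletion and their products work as a pair. All 9 members matched a RefSeq promoter, with 13 entries of the 35116 in the table (250 bases before to 50 after the start, GRCh38.p14). The 250 bases before the start of ANXA2 (chr15:60397987-60398236, minus strand) and of S100A10 (chr1:151993860-151994109, minus strand) follow, 5′ to 3′, with the letters of a TATA box (TATAAA), an AP-1 site (TGANTCA) and a GC box (GGGCGG, either strand) in capitals.
ANXA2: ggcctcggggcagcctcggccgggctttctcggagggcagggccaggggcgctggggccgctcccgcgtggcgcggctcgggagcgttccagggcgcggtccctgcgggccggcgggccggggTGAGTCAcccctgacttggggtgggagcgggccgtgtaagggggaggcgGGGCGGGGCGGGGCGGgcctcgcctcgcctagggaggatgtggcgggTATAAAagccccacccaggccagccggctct
S100A10: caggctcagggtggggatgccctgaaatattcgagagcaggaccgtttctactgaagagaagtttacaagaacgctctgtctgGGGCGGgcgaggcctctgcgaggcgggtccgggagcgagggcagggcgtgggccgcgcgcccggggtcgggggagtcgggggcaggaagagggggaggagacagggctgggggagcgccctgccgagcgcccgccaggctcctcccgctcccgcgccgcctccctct
The ANXA2 window held a TATA box at -31, an AP-1 site at -127 and 3 overlapping GC boxes, and the S100A10 window held 1 GC box at -167 and neither of the other motifs. A TATA box was present in 11.5% of all promoters in the table, an AP-1 site in 7.71% and a GC box in 45.0%, both strands searched. These are matches of letters only.

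In control cells the levels of the members spanned from ANXA2, at 344 ± 10.1 FPKM (SD, n = 2), to ANXA6, at 4.00 ± 0.284 FPKM. The order of the control means was ANXA2, ANXA5, ANXA1, S100A10, ANXA7, ANXA4, ANXA11, ANXA3 and ANXA6, and no neighbours in this order overlapped between libraries. ANXA2 ranked at the 99.1 percentile of the levels of all genes tested in control and ANXA6 at the 38.2 percentile. In ΔE2, S100A10 stood above ANXA1, ANXA11 and ANXA3 stood above ANXA4, and again no neighbours overlapped. In ΔSE12313-b, S100A10 and ANXA1 overlapped, as did ANXA3 and ANXA6. ANXA2 alone made up 44.1% to 44.5% of the FPKM of the 8 annexins in control, 51.8% to 54.8% in ΔE2 and 55.8% to 58.5% in ΔSE12313-b.

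**Figure D1:**
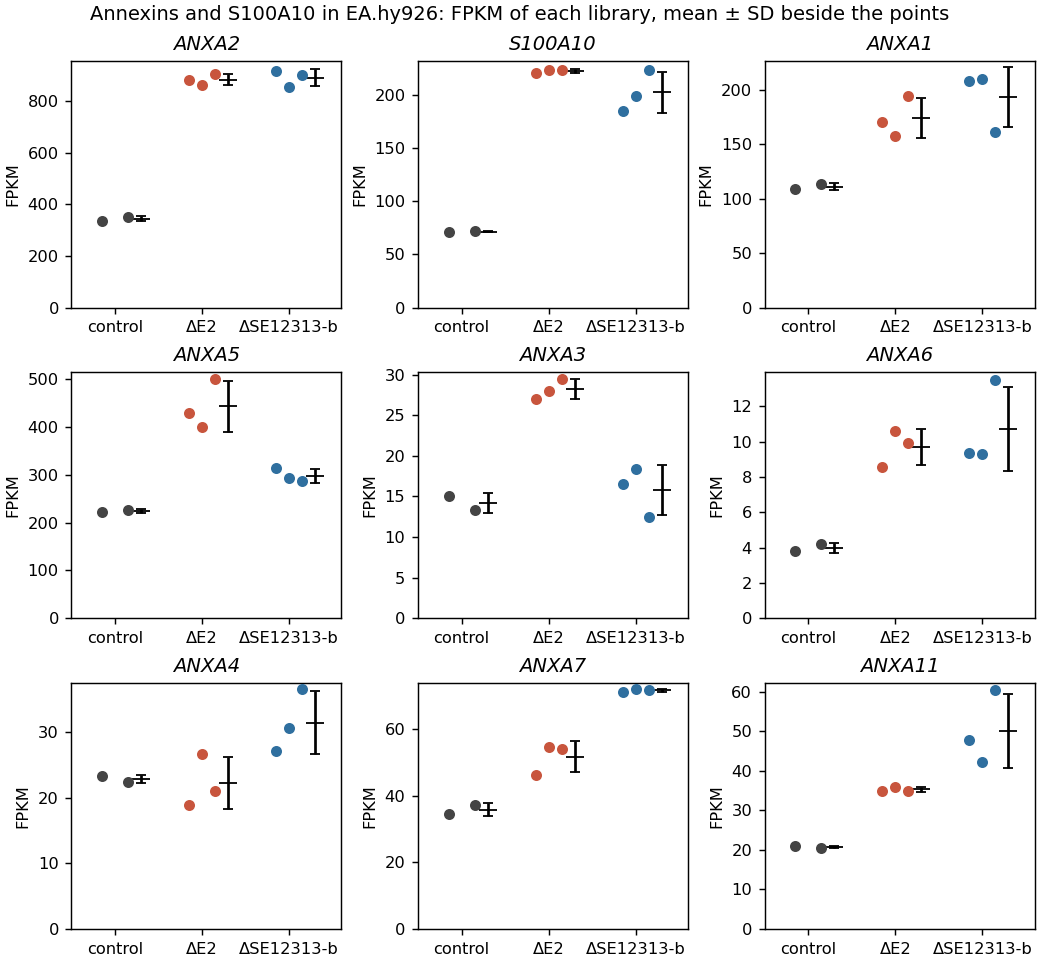
FPKM of each member (vertical axes, linear and from 0) in each of the 8 libraries, with 1 point per library for control (n = 2), ΔE2 (n = 3) and ΔSE12313-b (n = 3) and the mean ± SD beside the points. ANXA2 and S100A10 lie in every clone far above the controls, ANXA3 does so only in ΔE2 (27.0 to 29.5 FPKM), and ANXA4 overlaps between control and ΔE2.

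In the ΔE2 clones 8 of the 9 members were higher than in control, and none was lower (limma; 0 also at an unadjusted p under 0.05, and 0 with voom on recovered reads). Among all 13790 genes tested, 34.7% rose and 19.4% fell in this comparison at an adjusted p under 0.05. The median log2 fold change was 0.98 for the members and 0.14 for all genes. ANXA2, ANXA6 and S100A10 were also changed by at least 2-fold, and so were called DEGs (11.2% of all genes were DEGs in this direction and 8.36% in the other). In ΔSE12313-b, 8 members rose again and none fell (0 also unadjusted and with voom), against 43.0% of all genes higher and 16.4% lower, with a median log2 fold change of 0.999 for the members and 0.27 for all genes. There ANXA2, ANXA6, ANXA11 and S100A10 were DEGs (14.7% of all genes were DEGs in this direction and 7.83% in the other). Both comparisons used the same 2 control libraries, so their results are not independent of each other. With each library centred on its median ratio, the all-gene medians became -0.02 and -0.01 (log2), the counts of members that rose became 8 and 6, and the balance of DEGs over all genes turned from 1544 up and 1153 down to 1170 up and 1464 down in ΔE2, and from 2032 up and 1080 down to 1201 up and 1570 down in ΔSE12313-b.

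**Figure D2:**
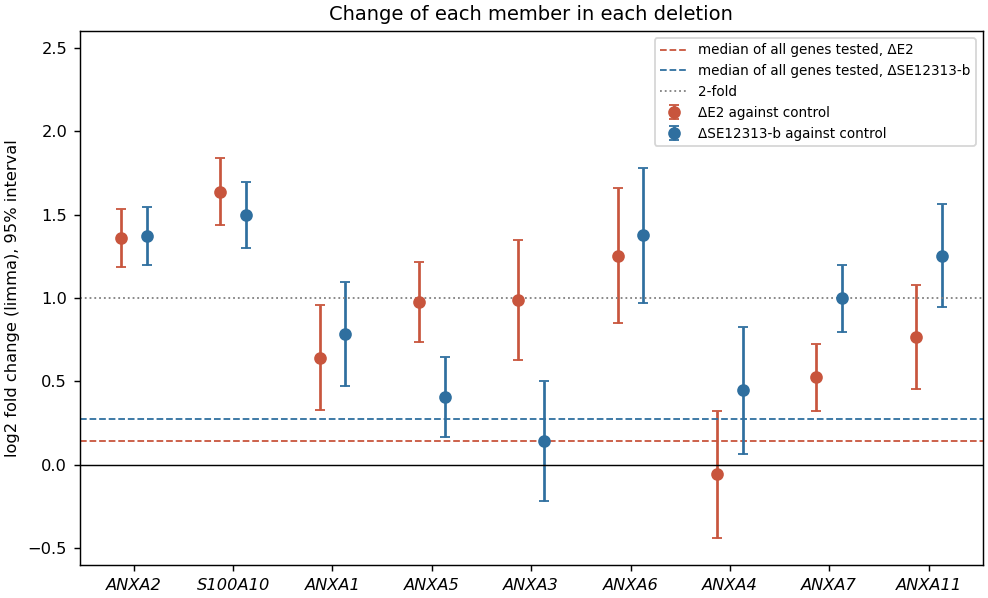
log2 fold change of each member against control (vertical axis) with its 95% interval from limma, for ΔE2 and ΔSE12313-b, beside the median of all genes tested (dashed, 0.14 and 0.27) and the 2-fold line (dotted). ANXA2, S100A10 and ANXA6 lie above the 2-fold line in both deletions, and the intervals of ANXA4 in ΔE2 and ANXA3 in ΔSE12313-b include 0.

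S100A10, which annexin A2 is known to protect from degradation and which binds plasminogen through its C-terminal lysine, had the largest log2 fold change of the 9 members in each deletion with the deposited scaling, but not with quantile-normalized libraries, where its values were 1.22 and 1.00 and those of ANXA2 were higher. Its level was 70.9 and 71.7 FPKM in the control libraries, 220.4, 223 and 223 FPKM in the ΔE2 clones, and 184, 199 and 223 FPKM in the ΔSE12313-b clones. The groups of clones lay entirely above control, and the ΔE2 clones were nearly equal. The log2 fold change was 1.64 ± 0.09 (SE) in ΔE2 (limma, adjusted p = 4.02e-06) and 1.498 ± 0.09 in ΔSE12313-b (adjusted p = 5.41e-06). These changes ranked at the 94.4 and 92.8 percentiles of all genes tested.

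ANXA2, which encodes the annexin that S100A10 binds, was at 337 and 351 FPKM in control, at 882, 863 and 906 FPKM in ΔE2, and at 918, 853 and 903 FPKM in ΔSE12313-b. The clones of both deletions overlapped and were all clear of control. The log2 fold change over control ranked at the 92.5 percentile of all genes in ΔE2 and at the 91.4 percentile in ΔSE12313-b. Between the deletions ANXA2 differed by -0.01 on the log2 scale (ΔE2 minus ΔSE12313-b, 95% interval -0.17 to 0.14, limma, adjusted p = 0.917), a sign that became positive with centred (0.12) or quantile-normalized (0.12) libraries.

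ANXA2P2 and ANXA2P1 rose with ANXA2. ANXA2P2 was at 99.0 and 100.3 FPKM in control, 266, 247 and 260.0 FPKM in ΔE2 and 263, 248 and 271 FPKM in ΔSE12313-b. As a share of the ANXA2 value this was 28.6% to 30.1% in all 8 libraries, with no group apart from the others. ANXA2P1 stood at 1.21% to 1.51% of ANXA2. The log2 fold changes of ANXA2P2 were 1.37 and 1.39 (limma, adjusted p = 3.64e-06 and 3.01e-06), and ANXA2P1 rose by 1.10 and 1.14 (adjusted p = 0.000125 and 8.19e-05). The weakly covered ANXA2P3 was at 0.292 and 0.737 FPKM in control, 0.893 to 1.43 FPKM in ΔE2 and 0.951 to 1.63 FPKM in ΔSE12313-b. The first control library was below the filter, so ANXA2P3 was tested only through the clones, where it was higher. No test is given for it. How the authors' counting placed reads that match several copies is not given in the sources used here, so the levels of ANXA2 and of its pseudogenes are uncertain. Of the 75-base windows, 37.5% in ANXA2P2, 1.65% in ANXA2P1 and 0% in ANXA2P3 were identical to ANXA2. These shares set no limit on how much of the ANXA2P2 level came from reads of the more abundant ANXA2. That part was not tested.

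Relative to ANXA2, the level of S100A10 was 0.210 and 0.204 in the control libraries, 0.250, 0.259 and 0.247 in ΔE2, and 0.201, 0.233 and 0.247 in ΔSE12313-b. The ratio in the ΔE2 clones lay above both controls, while that of the ΔSE12313-b clones overlapped control. The mean log2 ratio differed from control by 0.28 in ΔE2 (exact permutation test, two-sided, p = 0.2, the smallest p this design allows, Benjamini-Hochberg adjusted p = 0.3 over 3 comparisons) and by 0.13 in ΔSE12313-b (exact permutation test, p = 0.6, adjusted p = 0.6). Between the deletions it differed by 0.15 (exact permutation test, p = 0.2, adjusted p = 0.3, smallest possible p 0.1). None of these could reach a p of 0.05 at these sample sizes.

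**Figure D3:**
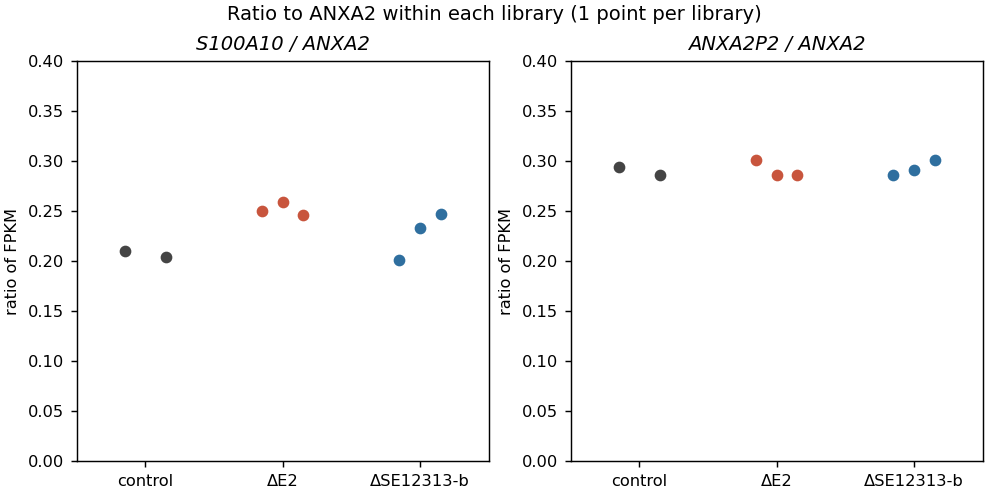
Ratio of FPKM within each library (vertical axes from 0, 1 point per library) of S100A10 to ANXA2 on the left and of ANXA2P2 to ANXA2 on the right, in control (n = 2), ΔE2 (n = 3) and ΔSE12313-b (n = 3). The S100A10 ratio is 0.204 to 0.210 in control and 0.247 to 0.259 in ΔE2, and the ANXA2P2 ratio varies little over all 8 libraries.

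ANXA1, whose product restrains phospholipase A2 and signals through formyl peptide receptors, was at 109 and 114 FPKM in control. It reached 171, 158 and 194 FPKM in ΔE2 and 208, 211 and 161 FPKM in ΔSE12313-b. Each clone exceeded both controls. The log2 fold changes were 0.64 ± 0.14 (SE; limma, adjusted p = 0.00485) and 0.79 ± 0.14 (adjusted p = 0.00152), and neither passed with quantile-normalized libraries (0.19 and 0.22). The receptors FPR1, FPR2 and FPR3 had 0 reads in every library, which allows up to 3 reads each.

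ANXA5, the annexin used as a probe for phosphatidylserine on dying cells, was the second most abundant member in every group. It measured 222 and 226 FPKM in control, 428, 399 and 501 FPKM in ΔE2, and 313, 292 and 286 FPKM in ΔSE12313-b, so the 3 groups were fully apart from each other. Its log2 fold change in ΔE2 was 0.98 ± 0.10 (limma, adjusted p = 0.000159). In ΔSE12313-b it was 0.41 ± 0.10 (adjusted p = 0.0102), a call that was lost without the first control library (adjusted p = 0.0686), without the second (adjusted p = 0.0546) and with centred libraries (0.12, adjusted p = 0.327), and whose direction turned with quantile normalization (-0.10, adjusted p = 0.418).

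ANXA3, an annexin linked to endothelial migration and vessel growth, had 15.04 and 13.3 FPKM in control. The ΔE2 clones were at 27.0, 28.1 and 29.5 FPKM and the ΔSE12313-b clones at 16.5, 18.4 and 12.4 FPKM. Only the ΔE2 clones were clear of control, and the third ΔSE12313-b clone was the lowest of all 8 libraries. The log2 fold change was 0.99 ± 0.16 in ΔE2 (limma, adjusted p = 0.00114), just under 2-fold, and 0.14 in ΔSE12313-b (95% interval -0.22 to 0.50, adjusted p = 0.461). Without the third ΔSE12313-b clone the latter was 0.30 (adjusted p = 0.0324), and with centred or quantile-normalized libraries it was -0.15 and -0.24.

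ANXA6, the only annexin with 2 copies of the core and a partner of cholesterol-rich membranes, was the least abundant member. Its levels were 3.797 and 4.20 FPKM in control, 8.57, 10.6 and 9.92 FPKM in ΔE2, and 9.34, 9.31 and 13.5 FPKM in ΔSE12313-b. All 6 clones lay above control and the clones of the deletions overlapped. The log2 fold change was 1.25 ± 0.18 in ΔE2 (limma, adjusted p = 0.000643) and 1.38 ± 0.18 in ΔSE12313-b (adjusted p = 0.000315).

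ANXA4, an annexin that gathers on torn membranes, was at 23.3 and 22.4 FPKM in control, 18.97, 26.7 and 21.0 FPKM in ΔE2 and 27.1, 30.6 and 36.6 FPKM in ΔSE12313-b. The ΔE2 clones lay on both sides of control, with a log2 fold change of -0.06 (95% interval -0.44 to 0.33, limma, adjusted p = 0.791) that was 0.05 without the first ΔE2 clone. The ΔSE12313-b clones were all above control. Their log2 fold change was 0.45 ± 0.17 (limma, adjusted p = 0.0465), which passed under only 9 of 20 settings. It did not pass without the third ΔE2 clone (limma, adjusted p = 0.066), the second ΔSE12313-b clone (0.08) or the third (0.111). Nor did it pass without the first or the second control (log2 fold changes 0.475 and 0.418). With centred libraries it was 0.16 (adjusted p = 0.435), and with quantile normalization 0.01 (adjusted p = 0.953).

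ANXA7 and ANXA11 are the annexins with long N-terminal tails, which bind sorcin and the calcium sensor ALG-2, and both lie on the long arm of chromosome 10. ANXA7 was at 34.5 and 37.1 FPKM in control, 46.3, 54.5 and 54.1 FPKM in ΔE2, and 71.2, 72.0 and 71.7 FPKM in ΔSE12313-b. ANXA11 was at 20.9 and 20.5 FPKM in control, 34.9, 36.0 and 34.9 FPKM in ΔE2, and 47.9, 42.1 and 60.3 FPKM in ΔSE12313-b. In both genes the groups formed 3 steps without overlap, with ΔSE12313-b highest. ANXA7 rose by 0.52 ± 0.09 (log2, SE) in ΔE2 (limma, adjusted p = 0.00151) and by 0.999 ± 0.09 in ΔSE12313-b (adjusted p = 4.62e-05), just short of 2-fold. ANXA11 rose by 0.77 ± 0.13 in ΔE2 (adjusted p = 0.002) and by 1.25 ± 0.13 in ΔSE12313-b (adjusted p = 0.00013). The rise of ANXA7 in ΔE2 did not pass with quantile-normalized libraries (0.20, adjusted p = 0.081). An exon of ANXA7 overlaps an antisense gene in the annotation, and how strands were counted is not given in the sources used here, so its reads may include that gene.

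The deletions were also compared with each other, a contrast of clones with clones in which the control libraries entered only through the shared estimate of the spread. With only these 2 groups in the fit, 4 members were called and ANXA4 was not (limma, adjusted p = 0.0727). Between them 5 members differed: ANXA3 and ANXA5 were higher in ΔE2, and ANXA4, ANXA7 and ANXA11 were lower. Of all genes 6.69% were higher and 19.3% lower in ΔE2 at an adjusted p under 0.05, and the all-gene median was -0.11. No member reached 2-fold (0 of 9 by limma and 0 by voom, against 1.60% of all genes higher and 2.63% lower), while 5 of 9 had an unadjusted p under 0.05. The log2 difference was 0.85 ± 0.14 for ANXA3 (limma, adjusted p = 0.0043) and 0.57 ± 0.09 for ANXA5 (adjusted p = 0.00419). It was -0.47 ± 0.08 for ANXA7 (adjusted p = 0.00428), -0.49 ± 0.12 for ANXA11 (adjusted p = 0.0212) and -0.50 ± 0.15 for ANXA4 (adjusted p = 0.0401). The ANXA4 call was lost without either control. It was also lost without the first or the third ΔE2 clone, or the second or the third ΔSE12313-b clone (limma, adjusted p from 0.0797 to 0.121). That of ANXA11 was lost without the first ΔE2 clone (limma, adjusted p = 0.0623), the third ΔE2 clone (0.0633) or the first ΔSE12313-b clone (0.0506). With centred libraries ANXA11 did not pass either (-0.36, adjusted p = 0.069). Leaving out single clones lowered the count of 5 to as few as 3.

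The other 4 members were not told apart between the deletions. For S100A10 the log2 difference was 0.14 (95% interval -0.04 to 0.32, limma, adjusted p = 0.214), and it passed with centred libraries (0.27, adjusted p = 0.0391) and without the third ΔSE12313-b clone (0.22, adjusted p = 0.0423). For ANXA1 it was -0.14 (interval -0.42 to 0.14, adjusted p = 0.426), and for ANXA6 -0.13 (interval -0.49 to 0.24, adjusted p = 0.593), which turned to 0.00 and 0.01 with centred and quantile-normalized libraries.

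Genes on the same chromosome arms moved with some of these members. In the direct comparison, the median log2 difference of the 300 genes tested on 4q, the arm of ANXA3 and ANXA5, was 0.33, and that of the 407 genes on 10q, the arm of ANXA7 and ANXA11, was -0.46. The values of ANXA7 and ANXA11 were close to the median of their arm (46.4 and 44.2 percentiles within it), whereas ANXA3 stood at the 88.0 percentile and ANXA5 at the 70.0 percentile of 4q. On 2p, the arm of ANXA4, the median was -0.07 and ANXA4 was at the 9.4 percentile. Against control, 10q had a median of 0.18 in the ΔE2 clones and 0.75 in the others, and 4q had medians of 0.27 and -0.02. The part of these arm-wide shifts in the members' differences was not tested.

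**Figure D4:**
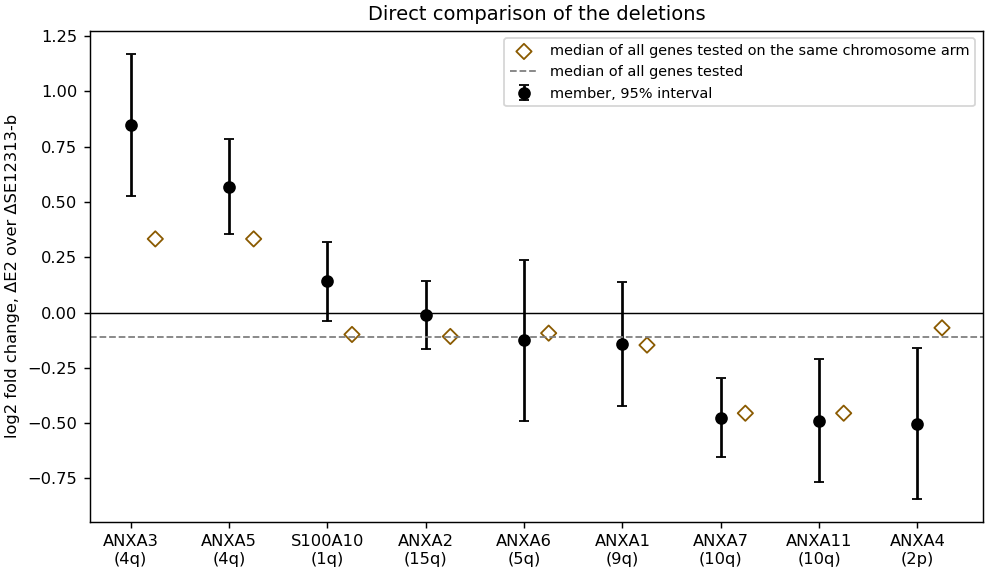
log2 difference of each member between ΔE2 and ΔSE12313-b (vertical axis, positive where ΔE2 is higher) with its 95% interval from limma, beside the median of all genes tested on its chromosome arm (open diamonds) and of all genes (dashed, -0.11). ANXA7 and ANXA11 coincide with the median of 10q (-0.46), and ANXA3 lies above that of 4q (0.33).

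Of the other annexins, 6 of 7 listed symbols were in the table. ANXA8, ANXA8L1 and ANXA13 had 0 reads in every library, which allows up to 3 reads each, and ANXA9 at most 1. ANXA10, a gastric annexin, was at 1.10 and 1.21 FPKM in control, 0.110, 0.082 and 0.205 FPKM in ΔE2 and 0.260, 0.236 and 0 FPKM in ΔSE12313-b. It was above the filter through the control libraries alone, so no test is given for it. It had 20 and 21 reads in control and at most 6 in any clone. The receptor-like ANXA2R, the remaining gene tested of this list, did not pass in either deletion.

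Among 18 other genes of the S100 family and its binding protein, 8 were tested. In ΔE2, 2 of them rose and 1 fell, and in ΔSE12313-b, 4 rose and none fell (0 also at an unadjusted p under 0.05, limma), against 34.7% of all genes higher and 19.4% lower in ΔE2 and 43.0% and 16.4% in ΔSE12313-b. The list's median log2 fold changes were 0.17 and 0.45 (0.14 and 0.27 for all genes). S100A3, a calcium- and zinc-binding member, rose from 2.58 and 2.83 FPKM to 8.29, 11.0 and 8.32 FPKM in ΔE2 and 10.0, 10.7 and 11.8 FPKM in ΔSE12313-b. Its log2 fold changes were 1.72 and 1.96 (limma, adjusted p = 4.73e-05 and 1.89e-05). S100A4, which is known for its role in cell motility, had 1.86 and 2.29 FPKM in control, 3.72, 8.52 and 3.19 FPKM in ΔE2 and 4.41, 5.19 and 9.31 FPKM in ΔSE12313-b. It passed in ΔSE12313-b (1.49, adjusted p = 0.0201, lost without the first or the second control at 0.114 and 0.0685) and not in ΔE2 (1.14, adjusted p = 0.0606, which passed without the third ΔE2 clone or the third ΔSE12313-b clone at 0.0441 and 0.0416).

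The surface complex of ANXA2 and S100A10 is known to promote plasmin formation, and 8 of 10 genes listed for plasminogen activation were tested. Of these, 2 rose and 3 fell in ΔE2, and 1 rose and 4 fell in ΔSE12313-b (medians -0.40 and -0.96 on the log2 scale, 0.14 and 0.27 for all genes). Of all genes 34.7% rose and 19.4% fell in ΔE2, and 43.0% rose and 16.4% fell in ΔSE12313-b. ENO1, a glycolytic enzyme that also binds plasminogen, rose from 403 and 397 FPKM to 835 to 932 FPKM in ΔE2 and 865 to 928 FPKM in ΔSE12313-b (log2 fold changes 1.14 and 1.17; limma, adjusted p = 1.96e-05 and 1.41e-05). THBD, the thrombin receptor thrombomodulin, fell from 96.7 and 95.4 FPKM to 21.5 to 26.2 FPKM in ΔE2 and 19.6 to 23.4 FPKM in ΔSE12313-b (-2.03 and -2.13; adjusted p = 4.75e-06 and 3.22e-06).

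SERPINE2, an inhibitor of serine proteases, was at 1.85 and 1.79 FPKM in control, 0.752 to 1.28 FPKM in ΔE2 and 0.289 to 0.497 FPKM in ΔSE12313-b. Its log2 fold change in ΔE2 was -0.71 (limma, adjusted p = 0.0769). In ΔSE12313-b it is among the genes counted as lower. Every ΔSE12313-b clone was below the filter, which SERPINE2 passed through the groups where it was higher, so no test is given there. PLAT, the tissue plasminogen activator that annexin A2 is known to bind, falls outside the rule for named genes and was chosen after its values were seen. It measured 112 and 109 FPKM in control, 179, 218 and 210.5 FPKM in ΔE2 and 53.6, 47.7 and 71.9 FPKM in ΔSE12313-b. It thus lay above control in every ΔE2 clone (log2 fold change 0.87, limma, adjusted p = 0.0031) and below it in every ΔSE12313-b clone (-0.96, adjusted p = 0.00158), and between the deletions it differed by 1.83 (adjusted p = 0.000426). Both calls against control held under all 20 settings tried.

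Of 22 genes for partners of annexins and for membrane repair, 16 were tested. In ΔE2, 8 rose and 4 fell, and in ΔSE12313-b, 8 rose and 3 fell (medians 0.20 and 0.20 on the log2 scale, 0.14 and 0.27 for all genes), beside all-gene shares of 34.7% higher and 19.4% lower in the former and 43.0% and 16.4% in the latter. MYOF, the ferlin myoferlin, rose from 52.1 and 53.0 FPKM to 108, 113 and 115 FPKM in ΔE2 and 151, 144 and 147 FPKM in ΔSE12313-b (1.09 and 1.49; limma, adjusted p = 6.15e-06 and 1.16e-06). DYSF, the ferlin dysferlin that works in the repair of torn membranes, went the other way, from 112 and 109 FPKM to 28.3, 52.7 and 31.2 FPKM in ΔE2 and 36.4, 32.6 and 55.4 FPKM in ΔSE12313-b (-1.62 and -1.46; adjusted p = 0.00239 and 0.00348). AHNAK, a large scaffold bound by the ANXA2 and S100A10 complex, was at 35.3 FPKM in both controls, 86.3, 64.0 and 90.0 FPKM in ΔE2 and 58.9, 81.3 and 48.1 FPKM in ΔSE12313-b. Its log2 fold change was 1.16 in ΔE2 (limma, adjusted p = 0.003) and 0.79 in ΔSE12313-b (adjusted p = 0.0154). The latter did not pass with centred libraries (0.51, adjusted p = 0.0902) or with quantile normalization (0.32, adjusted p = 0.284). Nor did it pass without the first or the second control (log2 fold changes 0.796 and 0.793). PLA2G4A, the cytosolic phospholipase that ANXA1 is known to restrain, fell from 29.9 and 29.4 FPKM to 8.15, 14.1 and 9.60 FPKM in ΔE2 and 17.0, 12.98 and 15.2 FPKM in ΔSE12313-b (-1.51 and -0.98; adjusted p = 0.000684 and 0.00497).

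The ANXA2 and S100A10 complex also takes part in secretion from Weibel-Palade bodies, the storage granules of endothelial cells. Of 12 genes listed for it 10 were tested, of which 0 rose (0 also at an unadjusted p under 0.05, limma) and 4 fell in ΔE2, and 2 rose and 2 fell in ΔSE12313-b (medians -0.11 and -0.02 on the log2 scale, 0.14 and 0.27 for all genes). The all-gene shares were 34.7% higher and 19.4% lower in ΔE2 and 43.0% higher and 16.4% lower in ΔSE12313-b. VWF, the main cargo, was low throughout, at 2.02 and 1.83 FPKM in control, 0.385 to 0.778 FPKM in ΔE2 and 0.346 to 0.831 FPKM in ΔSE12313-b (-1.72 and -1.80; limma, adjusted p = 0.00771 and 0.00528, the former 0.0551 without the first control). UNC13D, a priming factor for granules, was at 1.46 and 0.951 FPKM in control, 0.067 to 0.147 FPKM in ΔE2 and 0.086 to 0.173 FPKM in ΔSE12313-b. It is among those counted as lower in each deletion, but it was above the filter through the control libraries alone, so its own difference is not given as a result.

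The genes whose pattern over the 8 libraries was closest to that of ANXA2 were ANXA2P2, PKM, PSMB3, TRA2A and PPIA. The measure was the root mean square difference of log2 values centred on each gene's own mean, and it was 0.03, 0.04, 0.04, 0.05 and 0.05 for them, against a median of 0.59 over all genes tested. S100A10 ranked at place 152, with 0.14. The genes closest to S100A10 were CEP128 (0.06), BST1 (0.07), PEA15 (0.08), PSMC3 (0.09) and GSTP1 (0.10), with a median of 0.68 over all genes, and ANXA2 was at place 25. These distances describe 8 libraries that share group, depth and scaling, and ANXA2P2 also shares sequence windows with ANXA2.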

How the data were processed

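The authors made ribosome-depleted, stranded libraries from total RNA of 8 EA.hy926 samples, read 75 bases from a single end, trimmed with Trim Galore 0.4.4 and mapped to GRCh37 with STAR 2.5.4b. The deposited FPKM table has 65572 transcript lines, and the tool, RefSeq release, strand setting and treatment of multiply mapped reads behind it are not given in the sources used here. The authors based their own DEG calls on featureCounts counts, which were not used here.

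The deposited FPKM were used as they are, with 1 transcript per gene (highest mean). Reads behind each value were recovered from the FPKM steps (99.99% to 100% whole within 0.1 read) for depth and for 1 alternative. A gene was tested if 2 or more libraries reached an FPKM of 0.5 (13790 of 27946 genes). The test was limma 3.58.1 (R 4.3.3) on values transformed as log2(FPKM + 0.1) (3 groups in 1 model, trend, two-sided, Benjamini-Hochberg over all genes tested), because a count model does not suit FPKM. Fold changes are on that scale and understate those of low genes. "Rose" and "fell" mean an adjusted p under 0.05, and a DEG was also changed by at least 2-fold. The S100A10 ratio was tested with scipy 1.17.1, and sequences were aligned with Biopython 1.88. The limma step was also tested on simulated data with known changes. Every simulated library had the same spread, a setting that differs from these data, where clones varied more than controls. The intervals are from limma and rest on the spread between libraries of a group, pooled over the 3 groups. The limits for counts of 0 cover counting error only.

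The members, gene lists and tests were chosen with earlier results of these data known. Named were all members, at most 4 genes per list with the largest change among DEGs of either deletion, and the 5 genes closest to ANXA2 and to S100A10. A gene of the plasminogen list is not reported here and was left out of its counts. The alternatives were other pseudocounts, filters, scalings, transcripts, thresholds and variance models, a replicate block, each library left out, and voom on recovered reads.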

Additional observations from a re-analysis of the deposited data

Results flagged for a closer look

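For 8 of the genes named above the clones of the deletions differed by the direct test (ΔE2 minus ΔSE12313-b, log2 scale, limma with Benjamini-Hochberg adjustment). SERPINE2 is counted among these 8, but every ΔSE12313-b clone was below the filter for it, so its difference is given with no test. Of all genes tested, 6.69% were higher and 19.3% lower in ΔE2 in this contrast of clones with clones. Among the annexins, ANXA3 (0.85, adjusted p = 0.0043, 3 of 3 ΔE2 clones above all ΔSE12313-b clones) and ANXA5 (0.57, adjusted p = 0.00419, 3 of 3) were higher in ΔE2 than in ΔSE12313-b clones. ANXA4 (-0.50, adjusted p = 0.0401), ANXA7 (-0.47, adjusted p = 0.00428) and ANXA11 (-0.49, adjusted p = 0.0212) were lower in all 3 ΔE2 clones than in any ΔSE12313-b clone. The difference of ANXA4 passed under only 8 of 20 settings. The median of 10q was -0.455, and ANXA7 and ANXA11 were at the 46.4 and 44.2 percentiles of that arm.

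Of the genes around the ANXA2 complex, PLAT differed by 1.83 (adjusted p = 0.000426) with opposite signs against control, 0.87 in ΔE2 and -0.96 in ΔSE12313-b. SERPINE2 differed by 1.33, given with no test because it passed the filter only through control and ΔE2. MYOF differed by -0.40 (adjusted p = 0.00226). The fold changes of SERPINE2 and of MYOF against control each had the same sign in both deletions. Each of these 3 genes had no overlap between the clones of the deletions.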

How the results depend on the processing

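The rises of ANXA2, S100A10, ANXA6 and ANXA11 in both deletions passed under all 20 settings. So did those of ANXA3 and ANXA5 in ΔE2, that of ANXA7 in ΔSE12313-b, and the direct differences of ANXA3, ANXA5 and ANXA7. Quantile normalization left 5 members called in ΔSE12313-b in place of 8, with 3836 of all 13790 genes higher and 3758 lower. A limit of 1.5-fold gave 7 DEGs among the members in ΔE2 in place of 3, and 1 in the direct comparison in place of 0. The share of all genes was not computed at this limit or at the limit of 0.01 that follows. An adjusted p under 0.01 left 3 of the 5 members called in the direct comparison, and leaving out each library gave 3 to 5 there. The sign turned, with no call on the other side, for ANXA2 between the deletions (0.12 centred, 0.12 quantile-normalized, -0.044 to 0.01 with each library left out), for ANXA6 between the deletions (0.004 centred, 0.009 quantile-normalized, -0.21 to 0.049 with each library left out), for ANXA3 in ΔSE12313-b (-0.15 centred, -0.24 quantile-normalized), for ANXA5 in ΔSE12313-b (-0.10 quantile-normalized) and for ANXA4 in ΔE2 (-0.20 to 0.05 with each library left out). The cause was not tested. A pseudocount of 1 lowered the DEGs over all genes from 2697 to 1718 in ΔE2, from 3112 to 2004 in ΔSE12313-b and from 583 to 240 in the direct comparison.

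The labels give the groups the same replicate numbers. Deviations of same-numbered libraries correlated at -0.08 to 0.11, not every library correlated best with its own number, and nothing else ties the numbers, so they were not taken as pairs. With a replicate block, 8, 7 and 4 members were called in ΔE2, in ΔSE12313-b and between the deletions (8, 8 and 5 without it), the difference being ANXA4 (adjusted p = 0.088 and 0.062), and the DEGs numbered 4, 4 and 0. Leaving out a control leaves 1 library in that group, whose spread is then assumed to be that of the clones. The 2 control libraries limit all comparisons with control.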
